A study of Mus musculus with 2 samples.

Results

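The genes described here are 10 regulators of gonadotropin, prolactin and luteal function in the mouse ovary, chosen by symbol from the 24421 rows of a table of counts per gene. They are the receptors of follicle-stimulating hormone (Fshr), luteinising hormone (Lhcgr) and prolactin (Prlr), the prostaglandin receptors Ptgfr, Ptger2 and Ptger4, the oxytocin receptor Oxtr, the progesterone-inactivating enzyme Akr1c18, and the luteal genes Parm1 and Mgarp. All 10 had a row in the table, and all 10 passed the minimum mean of 1 CPM (counts scaled to library size) that left 13928 measured genes. The study compared 2 ovary libraries, which were 1 H19KO library, whose allele is described as H19(Δ3), and 1 wild-type (WT) library. Both came from C57BL/6J mice aged 8 weeks that received no special treatment. The sources used here give no estrous stage, and no number of animals per library. The stated purpose was to find ovarian genes whose expression depends on H19, an imprinted long noncoding RNA.

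Follicle-stimulating hormone acts on granulosa cells and drives follicle growth, while luteinising hormone acts on theca cells, mature granulosa cells and luteal cells, triggers ovulation and sustains steroid synthesis. Both receptors are G protein-coupled and signal mainly through cyclic AMP. In rodents prolactin maintains the corpus luteum through its receptor, JAK2 and STAT5, and represses Akr1c18, whose product 20α-hydroxysteroid dehydrogenase converts progesterone to a less active steroid. Prostaglandin F2α, acting on the receptor encoded by Ptgfr, ends luteal function and raises Akr1c18 in mice.

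The H19KO library held 23041225 counts and the WT library 23335131. H19 had 0 counts in the H19KO library and 672 in the WT library, at least 223-fold lower when 0 is taken to allow 3 counts. With 1 library per genotype there is no replicate check and no test, so each value below describes these libraries. Ratios are H19KO over WT after scaling, given as log2 with the 95% exact binomial interval in parentheses, which covers counting error only. In RNA from a whole ovary, fewer cells of a type and less RNA per cell cannot be told apart. Ovarian markers were present in both libraries, and pituitary hormone transcripts were at or near 0, with no count for Prl or Gh in either library.

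Of the 10 genes, 6 had an interval wholly below a ratio of 1 and 3 wholly above it, and the interval of Ptger4 spanned it. Over all measured genes 24.0% had an interval wholly below 1, 22.2% wholly above and 53.8% spanning it. Most of the 10 genes are abundant, which narrows their intervals. Among the 11692 genes whose mean reached 5 CPM, all 10 included, 26.4% lay wholly below and 23.7% wholly above. That minimum does not match the depth of the most counted of the 10 genes. Only 6.42% of measured genes had a higher mean CPM than Oxtr, and fewer had one above Ptgfr, Lhcgr, Mgarp or Prlr. At such depth a small difference is enough for an interval to leave 1. None of the 10 genes had an interval wholly beyond 2-fold, as 0.388% of measured genes had on the lower side and 0.610% on the higher. At a limit of 1.5-fold, Akr1c18 lay beyond it on the lower side, with 1.21% of measured genes, and Mgarp on the higher side, with 1.80%. The median log2 ratio of the 10 genes was -0.23, against -0.01 for all measured genes. Together the 10 genes took 0.319% of all counts in the H19KO library and 0.343% in the WT library.

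**Figure D1:**
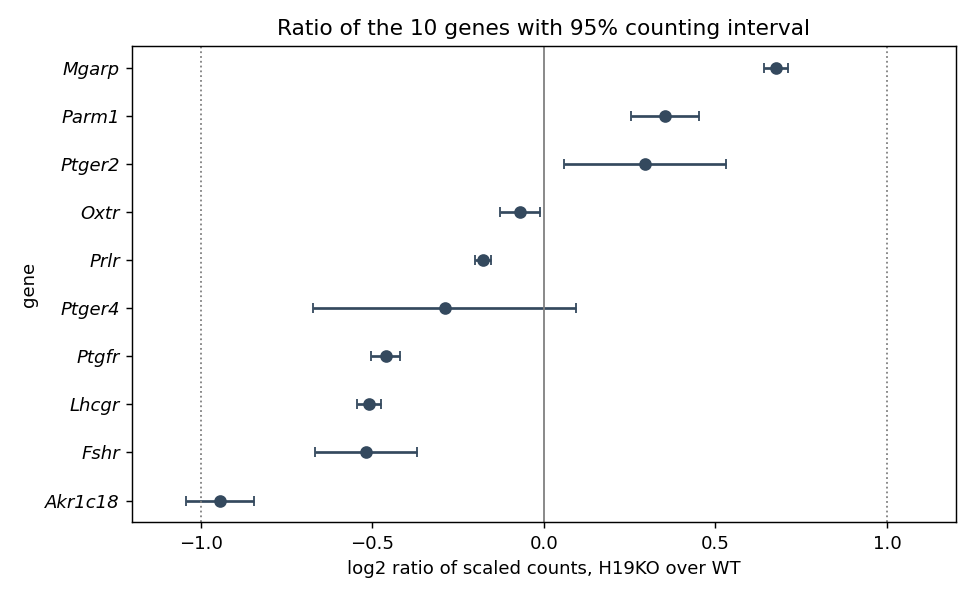
The log2 ratio of scaled counts, H19KO over WT, is on the horizontal axis for each of the 10 genes, with bars for the 95% counting interval, a solid line at equality and dotted lines at 2-fold. Akr1c18 lies lowest at -0.94 and Mgarp highest at 0.68, and only the interval of Ptger4 crosses equality.

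**Figure D2:**
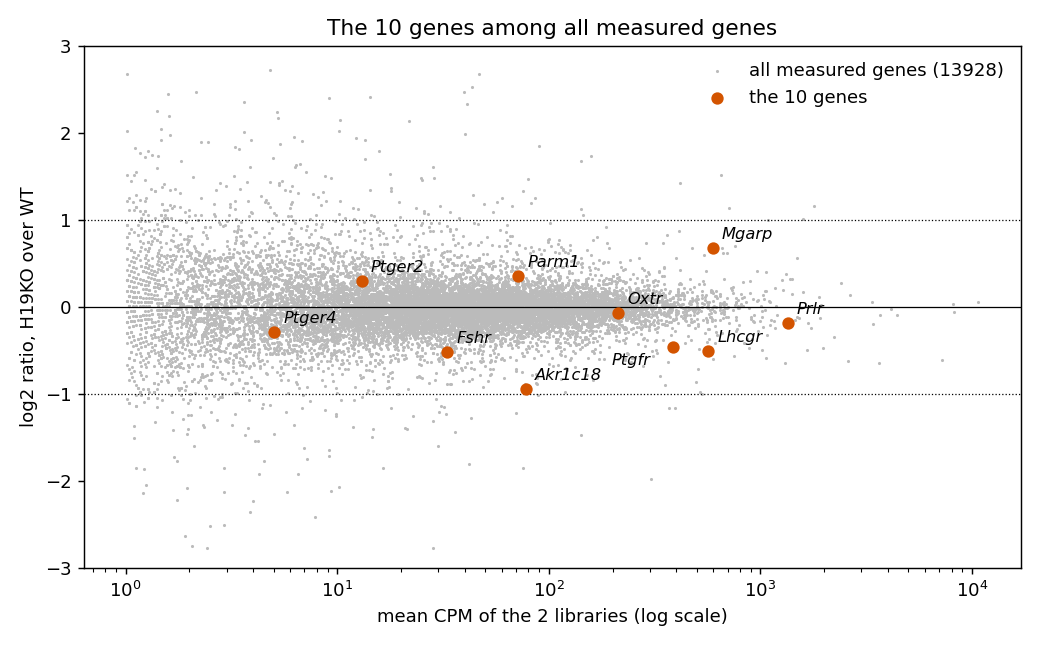
The mean CPM of both libraries is on the horizontal axis (log scale) and the log2 ratio, H19KO over WT, on the vertical axis, for 13928 measured genes in grey and the 10 genes in orange, with dotted lines at 2-fold. Of the 13928 measured genes, 14 lie outside the drawn range. Akr1c18 and Mgarp lie near the edges of the cloud at their abundance, and Oxtr lies near its middle.

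The sequences just before the transcription start of Akr1c18, which had the lowest ratio of the 10 genes, and of Lhcgr and Fshr, neighbouring genes with almost the same ratio, show how unlike these promoters are. They are from RefSeq on GRCm38.p6, read 5′ to 3′ on the minus strand, and end just before the RefSeq start for Lhcgr and Fshr. For Akr1c18 the stretch ends just before the GENCODE start, which lies upstream of the RefSeq start. Capitals mark the GC box GGGCGG on either strand, a site of the Sp1 family. The stretches are chr13:4150655-4150896 for Akr1c18, chr17:88792015-88792264 for Lhcgr and chr17:89200676-89200925 for Fshr.
Akr1c18: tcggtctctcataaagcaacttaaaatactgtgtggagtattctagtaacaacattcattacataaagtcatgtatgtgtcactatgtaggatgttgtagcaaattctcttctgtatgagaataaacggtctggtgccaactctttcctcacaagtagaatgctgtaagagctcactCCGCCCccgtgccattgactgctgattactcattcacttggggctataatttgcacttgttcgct
Lhcgr: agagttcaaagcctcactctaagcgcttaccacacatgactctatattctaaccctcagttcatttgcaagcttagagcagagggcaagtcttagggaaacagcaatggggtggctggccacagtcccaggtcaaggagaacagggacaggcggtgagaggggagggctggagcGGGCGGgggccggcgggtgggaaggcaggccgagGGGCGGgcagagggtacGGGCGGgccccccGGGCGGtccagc
Fshr: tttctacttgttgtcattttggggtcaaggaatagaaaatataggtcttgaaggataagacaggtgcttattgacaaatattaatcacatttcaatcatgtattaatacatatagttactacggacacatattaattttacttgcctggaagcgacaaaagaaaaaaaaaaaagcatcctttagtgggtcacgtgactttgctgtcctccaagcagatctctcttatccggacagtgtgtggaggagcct
The Lhcgr stretch holds 4 GC boxes, the Akr1c18 stretch 1 and the Fshr stretch 0. GC content over the 250 bases before the RefSeq start was 63.2% for Lhcgr, 41.6% for Akr1c18 and 36.8% for Fshr. In windows of that length, all 10 genes matched RefSeq, and 6 held a GC box (Akr1c18, Lhcgr, Mgarp, Oxtr, Ptger4 and Ptgfr), against 32.7% of 32851 promoters. The STAT motif TTCNNNGAA, the kind of site that prolactin-activated STAT5 binds, was found for Prlr, in the window of 1 of its alternative starts, and for no other of the genes, against 7.02% of all promoters. The NR5A motif AAGGTCA, the cyclic AMP response element TGACGTCA and the TATA box TATAAA were found for none of them, against 4.08%, 1.55% and 12.4% of all promoters. A gene is counted if any of its windows held the motif, and Prlr had several windows, whereas the shares are of single promoters, so the units differ. These are matches of letters in short windows on either strand, and binding was not measured.

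The gonadotropin receptors were lower in the H19KO library, both by about the same proportion. Lhcgr (minus strand of chromosome 17, 88716481 to 88791990, mm10) had 10830 counts in the H19KO library, or 468 CPM, and 15503 counts in the WT library, or 667 CPM. Its log2 ratio was -0.51 (-0.55 to -0.47), a 0.703-fold level, and 4.81% of measured genes had a lower ratio. Fshr (minus strand of chromosome 17, 88984952 to 89200675), which is expressed in granulosa cells, had 630 counts in the H19KO library, or 27.2 CPM, and 908 counts in the WT library, or 39.1 CPM. The log2 ratio of Fshr was -0.52 (-0.67 to -0.37), a 0.698-fold level, and 4.68% of measured genes had a lower ratio. Fshr and Lhcgr lie 193 kb apart with 1 annotated gene between them, which is not protein coding. For each 100 Lhcgr counts there were 5.82 Fshr counts in the H19KO library and 5.86 in the WT library. This ratio does not depend on how libraries are scaled, and the H19KO over WT quotient of 0.993 had a counting interval of 0.893 to 1.10.

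Granulosa cell markers differed in the same direction as Fshr. Of 12 markers, all measured, 10 had an interval below 1, 1 above (Nr5a2) and 1 spanning it, with a median log2 ratio of -0.48, and none was at 0. Their summed level was 4328 CPM in the H19KO library and 5628 CPM in the WT library. The gap junction gene Gja1 stood at -0.35 (-0.37 to -0.33) on the log2 scale and the inhibin subunit Inha at -0.50 (-0.52 to -0.47). The oestrogen-producing aromatase Cyp19a1, at -1.60 (-1.78 to -1.42), and the hedgehog ligand Ihh, at -1.23 (-1.39 to -1.07), lay beyond 2-fold. The proportion of Fshr counts to those of a marker, H19KO over WT, varied with the marker, with 5 of the 12 quotients wholly below 1, 4 wholly above and 3 spanning it. They ran from 0.668 (0.586 to 0.762) against the anti-Müllerian hormone receptor Amhr2 to 2.12 (1.80 to 2.49) against Cyp19a1, with a median of 0.971. The part of granulosa cell number in the Fshr value was not tested.

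Lhcgr is also a gene of theca and luteal cells, and their markers were more mixed. Of 8 theca and interstitial markers, 7 were measured, 4 had an interval below 1, 1 above and 2 spanning it, with a median of -0.08. No marker of this list was at 0 in both libraries, and Insl3 had 2 counts in the H19KO library and 1 in the WT library. Their summed level was 7187 CPM in the H19KO library and 7173 CPM in the WT library. The androgen-producing enzyme Cyp17a1 had 2834 counts in the H19KO library and 11243 in the WT library, a log2 ratio of -1.98 (-2.04 to -1.92), whereas Aldh1a1, a retinaldehyde dehydrogenase, had one of 0.27 (0.26 to 0.29). Of 8 luteal markers, 6 had an interval below 1, 1 above and 1 spanning it, with a median of -0.13. None was at 0, and their summed level was 16230 CPM in the H19KO library and 17394 CPM in the WT library. Of this sum, the steroid enzyme Hsd3b1 alone gave 8065 CPM in the H19KO library and 8397 CPM in the WT library. Set against each of these 8 luteal markers within a library, Lhcgr had 6 quotients, H19KO over WT, wholly below 1, 1 above and 1 spanning it. The lowest was 0.649 (0.631 to 0.668) against Star, which moves cholesterol into mitochondria, and the highest 1.10 (1.06 to 1.13) against the secreted Wnt modulator Sfrp4. The part of theca and luteal cell numbers in the Lhcgr value was not tested.

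Genes whose proteins carry or end the gonadotropin signal showed no common direction. Of 21 measured, 5 had an interval above 1, 8 below and 8 spanning it, none lay beyond 2-fold, and the median was -0.04. Gnas, which encodes the stimulatory G protein that both receptors use, had a log2 ratio of 0.13 (0.09 to 0.16). Prkar2b, a regulatory subunit of protein kinase A that follicle-stimulating hormone induces in granulosa cells, had one of -0.04 (-0.07 to 0.00), and Rgs2, a regulator of G protein signalling, 0.11 (0.07 to 0.15). Mvk, a mevalonate pathway kinase whose protein binds and destabilises Lhcgr mRNA in rats, had 468 counts in the H19KO library and 569 in the WT library, a log2 ratio of -0.27 (-0.45 to -0.09). The phosphodiesterase Pde4b, which degrades cyclic AMP and was singled out after its value was seen, had the lowest ratio of this list at -0.55 (-0.74 to -0.36). Among relatives of the gonadotropin receptors, Tshr had only 5 counts in the H19KO library and 3 in the WT library. The R-spondin receptors Lgr4 and Lgr5 had log2 ratios of -0.13 (-0.19 to -0.07) and -0.33 (-0.46 to -0.20). Their relative Lgr6 had 313 counts in the H19KO library and 750 in the WT library, a log2 ratio of -1.25 (-1.45 to -1.06), wholly beyond 2-fold.

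Prlr was by far the most counted of the 10 genes, and it was slightly lower in the H19KO library. The gene (plus strand of chromosome 15, 10177238 to 10349180) had 29217 counts in the H19KO library, or 1264 CPM, and 33242 counts in the WT library, or 1430 CPM. Its log2 ratio was -0.18 (-0.20 to -0.16), a 0.884-fold level, and 23.0% of measured genes had a lower ratio. Only 31 measured genes had a higher mean CPM than Prlr, and its interval was the narrowest of the 10. Counts per gene do not separate the long and short forms of the receptor.

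Genes of prolactin signalling went both ways. Of 15, all measured, 7 had an interval below 1, 3 above and 5 spanning it, and the median was -0.08. Pik3r1, a regulatory subunit of phosphoinositide 3-kinase, had a log2 ratio of 0.00 (-0.04 to 0.05) and Stat3, a transcription factor of the pathway, one of -0.08 (-0.14 to -0.02). Singled out after their values were seen, Stat5a and the STAT5-induced inhibitors Cish and Socs2 were lower. Stat5a had 1837 counts in the H19KO library and 2414 in the WT library, a log2 ratio of -0.39 (-0.47 to -0.30). Cish had 296 counts in the H19KO library and 461 in the WT library, a log2 ratio of -0.63 (-0.85 to -0.42), and Socs2 had one of -0.39 (-0.45 to -0.32). Their relatives in the list varied. Stat5b had a log2 ratio of -0.11 (-0.17 to -0.04) and Socs7 one of -0.48 (-0.56 to -0.40). The intervals of Socs1, at -0.08 (-0.69 to 0.52), and Socs3, at -0.18 (-0.38 to 0.02), spanned equality. Ptpn6, of the same list, was higher at 0.68 (0.45 to 0.91), and the kinase Jak2 had a log2 ratio of 0.02 (-0.06 to 0.10).

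The receptor of the luteolytic prostaglandin F2α and the enzyme that inactivates progesterone were both lower in the H19KO library, the enzyme more so. Ptgfr (minus strand of chromosome 3, 151796502 to 151837630) had 7518 counts in the H19KO library, or 325 CPM, and 10409 counts in the WT library, or 448 CPM. Ptgfr thus had a log2 ratio of -0.46 (-0.50 to -0.42), a 0.726-fold level, and 5.82% of measured genes had a lower ratio. Akr1c18 (minus strand of chromosome 13, 4132615 to 4150654) had 1229 counts in the H19KO library, or 53.1 CPM, and 2378 counts in the WT library, or 102 CPM. The log2 ratio of Akr1c18 was -0.94 (-1.04 to -0.84), a 0.520-fold level, and 145 measured genes, or 1.04%, had a lower one. The interval of Akr1c18 reached past 2-fold at its lower end but did not lie wholly beyond it.

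Ratios within a library, which no scaling affects, put Akr1c18 lower against Ptgfr, Prlr and the 8 luteal markers. This follows from their higher log2 ratios and is no separate evidence. Hsd17b7, of the luteal steroidogenesis list, had a log2 ratio of -0.97 (-1.01 to -0.93) and was not among the genes set beside Akr1c18. For each 100 Ptgfr counts there were 16.3 Akr1c18 counts in the H19KO library and 22.8 in the WT library, a quotient of 0.716 (0.663 to 0.772). Against Prlr the quotient was 0.588 (0.548 to 0.631). Against the 8 luteal markers all 8 quotients lay wholly below 1, between 0.480 for Star and 0.812 for Sfrp4. Lhcgr and Ptgfr, in contrast, kept nearly the same proportion, with 144 Lhcgr counts for each 100 Ptgfr counts in the H19KO library and 149 in the WT library, a quotient of 0.967 (0.931 to 1.01).

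The relatives of Akr1c18 had ratios of either sign, and the interval of Akr1e1 overlapped that of Akr1c18. Of the 9 other aldo-keto reductases listed, 4 were measured, of which 2 had an interval above 1 and 2 below, with a median of -0.10. Akr1cl, on another chromosome and the most abundant, had 45101 counts in the H19KO library and 44539 in the WT library, a log2 ratio of 0.03 (0.01 to 0.05). Akr1c14, a 3α-hydroxysteroid dehydrogenase, had 6941 counts in the H19KO library and 8202 in the WT library, a log2 ratio of -0.23 (-0.28 to -0.19). Akr1c13 had 122 counts in the H19KO library and 67 in the WT library, a log2 ratio of 0.87 (0.43 to 1.32). Akr1e1 had 180 counts in the H19KO library and 379 in the WT library, a log2 ratio of -1.06 (-1.33 to -0.81). Akr1c12, Akr1c19, Akr1c20 and Akr1c21 had between 2 and 19 counts in each library, and Akr1c6 had 0 in both. None of the 1205 stretches of 76 bases, the read length, in Akr1c18 transcripts occurs in a transcript of another annotated gene, so whole reads of Akr1c18 match no relative exactly.

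Mgarp and Parm1 were higher in the H19KO library. Mgarp (minus strand of chromosome 3, 51388412 to 51396738) encodes a mitochondrial protein first known as an ovary-specific acidic protein and tied to steroid synthesis. It had 16943 counts in the H19KO library, or 733 CPM, and 10668 counts in the WT library, or 459 CPM. Its log2 ratio was 0.68 (0.64 to 0.71), a 1.60-fold level, and 3.43% of measured genes had a higher ratio. Parm1 (plus strand of chromosome 5, 91517615 to 91626894) encodes a mucin-like membrane glycoprotein. It had 1856 counts in the H19KO library, or 80.3 CPM, and 1462 counts in the WT library, or 62.9 CPM. For Parm1 the log2 ratio was 0.35 (0.25 to 0.45), a 1.28-fold level, and 10.1% of measured genes had a higher ratio.

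In proportion to other genes of steroid-producing cells, Mgarp was higher in the H19KO library, which follows from their lower log2 ratios and is no separate evidence. For each 100 Lhcgr counts there were 156 Mgarp counts in the H19KO library and 68.8 in the WT library, a quotient of 2.27 (2.20 to 2.35). Against the 8 luteal markers all 8 quotients lay wholly above 1, between 1.48 for Star and 2.49 for Sfrp4. Mgarp over Akr1c18, the genes with the highest and the lowest ratio of the 10, was 13.8 in the H19KO library and 4.49 in the WT library. Parm1 over Akr1c18 was 1.51 in the H19KO library and 0.615 in the WT library, so the gene with more counts was Parm1 in the H19KO library and Akr1c18 in the WT library.

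The receptors of prostaglandin E2 were rare, and their values are the least precise. Ptger2 (plus strand of chromosome 14, 44988195 to 45003820), a cyclic AMP-coupled receptor that cumulus cells use during their expansion, had 333 counts in the H19KO library, or 14.4 CPM, and 273 counts in the WT library, or 11.7 CPM. Its log2 ratio was 0.29 (0.06 to 0.53), a 1.23-fold level, and 12.7% of measured genes had a higher ratio. Ptger4 (minus strand of chromosome 15, 5206661 to 5244187), the other cyclic AMP-coupled receptor of prostaglandin E2, had 105 counts in the H19KO library, or 4.54 CPM, and 129 counts in the WT library, or 5.55 CPM. Its log2 ratio of -0.29 (-0.67 to 0.09) had an interval that spanned 0, so a difference was not detectable at this depth. Of the exon bases of Ptger4, 15.3% overlap Gm15937, a pseudogene on the opposite strand, and the strand setting of the counting is not given. For each 100 Ptger2 counts there were 31.5 Ptger4 counts in the H19KO library and 47.3 in the WT library, a quotient of 0.667 (0.487 to 0.914).

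Of the 7 other genes of prostanoid reception, 4 were measured, 1 had an interval above 1 and 3 spanned it, with a median of 0.16. Ptgfrn, whose protein binds the prostaglandin F receptor, had 3928 counts in the H19KO library and 3142 in the WT library, a log2 ratio of 0.33 (0.26 to 0.40). Ptger3, another prostaglandin E2 receptor, had 59 counts in the H19KO library and 75 in the WT library, and Ptgdr2, a prostaglandin D2 receptor, 31 in the H19KO library and 27 in the WT library. Of 17 genes of prostaglandin synthesis, transport and degradation, 15 were measured, 5 had an interval above 1, 4 below and 6 spanning it, with a median of 0.00 and none beyond 2-fold. Akr1b3, of this list, had 0 counts in both libraries, and Prxl2b had no row under that symbol. The most abundant, the prostaglandin E synthase Ptges, had 2561 counts in the H19KO library and 4439 in the WT library, a log2 ratio of -0.79 (-0.86 to -0.72). Ptges3, a second synthase that also acts as an Hsp90 co-chaperone, had one of -0.21 (-0.28 to -0.14), and Hpgd, which inactivates prostaglandins, one of -0.07 (-0.17 to 0.03).

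Oxtr had nearly the same level in both libraries. It (minus strand of chromosome 6, 112473683 to 112489943) had 4796 counts in the H19KO library, or 207 CPM, and 5060 counts in the WT library, or 218 CPM. Oxtr had a log2 ratio of -0.07 (-0.13 to -0.01), a 0.953-fold level, and 39.2% of measured genes had a lower ratio. Relative to Ptgfr, another receptor coupled to calcium release, Oxtr stood higher, with 63.8 Oxtr counts for each 100 Ptgfr counts in the H19KO library and 48.6 in the WT library, a quotient of 1.31 (1.25 to 1.38). The ligand genes Oxt and Avp had 0 counts in both libraries. Of the 7 genes of the oxytocin and vasopressin system other than Oxtr, 2 were measured, 1 with an interval above 1 and 1 spanning it. Lnpep, the membrane peptidase that cleaves oxytocin, stood at 0.30 (0.25 to 0.36) and Cd38, an ectoenzyme needed for oxytocin release in the brain, at -0.09 (-0.28 to 0.09). Oxtr is also known from smooth muscle. Of 7 smooth muscle markers, all measured, 5 had an interval above 1, 1 below and 1 spanning it, none was at 0, and their summed level was 1859 CPM in the H19KO library and 1527 CPM in the WT library. The part of muscle cells in the Oxtr value was not tested.

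Per length of exon, the 10 genes spanned a wide range of levels, and their order was mostly alike in both libraries. Mgarp was the highest, with 354 CPM per kb in the H19KO library and 222 CPM per kb in the WT library. Prlr followed with 82.4 CPM per kb in the H19KO library and 93.2 in the WT library, then Lhcgr with 61.3 in the H19KO library and 87.2 in the WT library. Akr1c18 had 44.0 CPM per kb in the H19KO library, where it followed Ptgfr at 48.0 and its counting interval overlapped that of Oxtr at 43.3. In the WT library it had 84.7 CPM per kb, overlapping Lhcgr and above Ptgfr at 66.0 and Oxtr at 45.4. Parm1 and Fshr also changed places. Parm1 had 15.8 CPM per kb in the H19KO library and 12.4 in the WT library, and Fshr had 11.5 in the H19KO library and 16.5 in the WT library. Ptger2 had 2.77 CPM per kb in the H19KO library and 2.26 in the WT library, and Ptger4 had 0.683 in the H19KO library and 0.834 in the WT library. Apart from these overlaps, neighbours in the order lay apart by more than their counting intervals. Lengths are unions of all annotated exons, so the levels of genes with long alternative exons, such as Prlr, are understated.

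**Figure D3:**
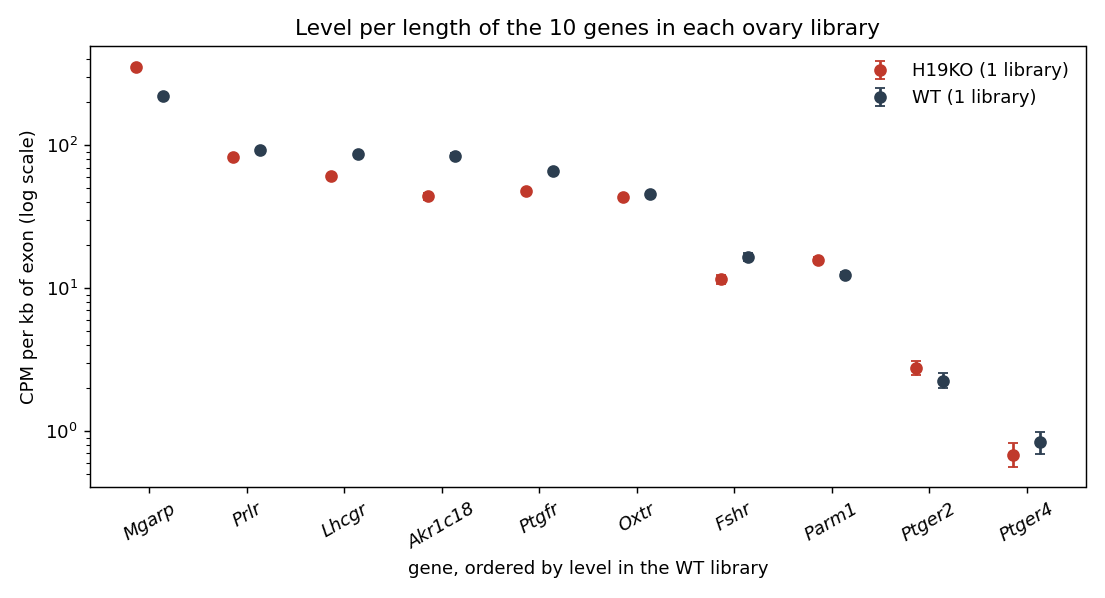
Points give CPM per kb of exon (log scale) for the 10 genes, with H19KO in red at the left of each pair and WT in dark blue at the right, and bars for the exact 95% Poisson interval. Akr1c18 stands at 44.0 in H19KO, level with Oxtr, and at 84.7 in WT, level with Lhcgr.

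Lists of luteal steroid synthesis and of luteal regression had medians near equality, though single genes of each lay far from it. Of 14 luteal steroidogenesis genes, all measured, 9 had an interval below 1, 4 above and 1 spanning it, with a median log2 ratio of -0.09 and none beyond 2-fold. The most abundant of them were Hsd3b1, which makes progesterone, at -0.06 (-0.07 to -0.05), Cyp11a1, which cleaves the cholesterol side chain, at -0.02 (-0.03 to -0.01), and Star at 0.11 (0.09 to 0.13). Hsd3b1, Cyp11a1, Star and Scarb1 are also among the luteal markers, and Cyp11a1 is also a theca and interstitial marker. These lists are therefore not independent. Hsd17b7, an oestradiol and cholesterol synthesis enzyme known in rats as a protein that binds the prolactin receptor, was singled out after its value was seen, with 8094 counts in the H19KO library, 15971 in the WT library and a log2 ratio of -0.97 (-1.01 to -0.93). Of 20 genes known from luteal regression, 18 were measured, 7 had an interval below 1, 3 above and 8 spanning it, with a median of -0.07. The nuclear receptor Nr4a1, through which prostaglandin F2α raises the Akr1c18 homologue in rats, had 1472 counts in the H19KO library and 2613 in the WT library, a log2 ratio of -0.82 (-0.91 to -0.73). The AP-1 subunit Jun went the other way, at 0.65 (0.58 to 0.73), and the tumour necrosis factor receptor Tnfrsf1a had a log2 ratio of 0.12 (0.04 to 0.20).

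Marker RNA of other cell types differed between the libraries by amounts like those of several of the 10 genes. Of 10 oocyte markers, 7 had an interval below 1 and 3 spanning it (median -0.33), and among 6 endothelial markers 5 lay below and 1 above (median -0.19). Of 6 measured leukocyte and macrophage markers among 8, 4 had an interval above 1, 1 below and 1 spanning it (median 0.26). Of 6 surface epithelium markers, 4 lay above, 1 below and 1 spanned it (median 0.37). None of these markers was at 0 in both libraries. Of oviduct markers only Ovgp1 was measured, with 134 counts in the H19KO library and 33 in the WT library. The other oviduct markers did not share this direction. Foxj1 had 3 counts in the H19KO library and 11 in the WT library, and Pax8 had 9 in each. Tekt1 had 14 in the H19KO library and 9 in the WT library, and Dynlrb2 had 0 in both. Among adrenal cortex markers Cyp11b1, which makes corticosterone, had 945 counts in the H19KO library and 13 in the WT library, and Akr1b7, below the minimum mean of 1 CPM, had 36 counts in the H19KO library and 9 in the WT library. Of the other adrenal cortex markers below that minimum, Cyp21a1 and Mc2r had between 1 and 6 counts in each library. Cyp11b2 had 1 in the H19KO library and 0 in the WT library. The part of other cell types in the ratios of the 10 genes was not tested.

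**Figure D4:**
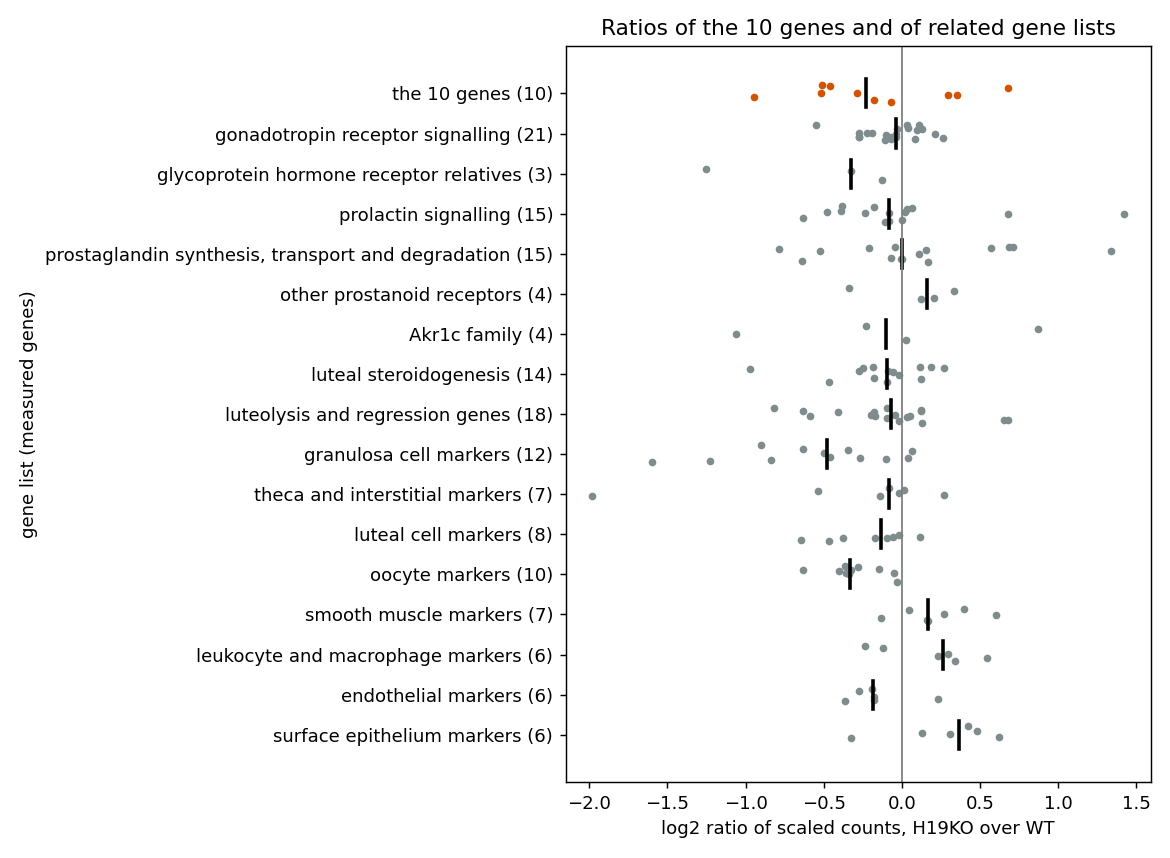
Each point is the log2 ratio, H19KO over WT, of 1 measured gene, with the 10 genes in orange, related gene lists in grey, a black bar at each median and the number of measured genes in parentheses. Vertical scatter has no meaning. Lists with at most 2 measured genes are not drawn (oviduct, adrenal cortex, oxytocin and vasopressin, and pituitary hormones). The drawn medians run from -0.48 for granulosa cell markers to 0.37 for surface epithelium markers, with the 10 genes at -0.23.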

How the data were processed

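The deposited values are whole numbers per gene symbol made by the authors, 1 column per library, and are taken here as counts. Size factors computed from them with DESeq2 were equal for both columns. Whether the values are raw counts or normalised values rounded to whole numbers cannot be told from them. If they were normalised, the totals are not sequencing depths and the counting intervals are approximate. Per the labels' protocols, libraries were stranded and paired-end, from total RNA after removal of ribosomal RNA. Per the submitters' processing notes the build was mm10 and the tools included DESeq2 1.0.0, Cufflinks 2.2.1 and STAR 2.5.0a, without roles. The sources used here name no counting tool, annotation or strand setting, so overlapping genes cannot be told apart. Rows named by dates (27, with 0.231% of H19KO and 0.229% of WT counts) stayed in the totals.

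Libraries were scaled by TMM (edgeR 4.0.16), 0.5 was added to counts for log2 ratios, and exact conditional binomial 95% intervals were computed (scipy 1.17.1). A gene was measured at a mean of 1 CPM. Called means an interval wholly past a limit, a rule of size and not a test. Quotients between genes have exact conditional odds ratio intervals. Scripts were tested on simulated data. Coordinates and exon lengths are from GENCODE M21 (GRCm38, the same assembly as mm10).

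The 10 genes and all gene lists were chosen with earlier results of these data known. Named from each pathway list were the 3 most abundant genes and those beyond 2-fold, from each marker list the 2 most abundant and those beyond 2-fold, of which only those a result turns on are printed, and all Akr1c relatives with counts. A gene that this rule names is not reported here. The pairs set in quotients were chosen after values were seen. Alternatives were other scalings, added counts, filters and limits. With 2 libraries no genes of like pattern could be sought.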

Additional observations from a re-analysis of the deposited data

How the results depend on the processing

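All 40 values of the 10 log2 ratios under 3 other scalings and with 5 added to each count kept their direction and stayed inside their intervals, and the counts of 6 genes below and 3 above 1 held under the 3 scalings. By the point ratio, 7 of the 10 genes lay below 1 and 3 above. Over all measured genes, the point ratio put 6668 genes above and 7260 below 1, and 206 above and 123 below 2-fold, where the interval rule gave 85 and 54 beyond 2-fold. A limit of 1.5-fold gave 251 and 168 genes and a limit of 4-fold 16 and 7, which follows from the rule itself. With a minimum of 5 CPM, 34 genes lay below 2-fold, because fewer genes were counted. Of 160 list counts under alternatives, 151 were equal to those reported and 9 differed by 1 gene, of which 6 stayed within 1.5 times. With DESeq2 1.42.0 size factors 1 Akr1c relative, not 2, lay above 1. With no low count filter 1 of the other prostanoid receptors and 2 leukocyte markers lay below 1, and 3 adrenal cortex markers, not 2, lay above, since rarer genes entered. No paired analysis was possible because there was 1 library for each genotype, and no replicate could be left out. Depth limits Ptger4 most, whose interval ran from -0.67 to 0.09.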
